A study of Caenorhabditis elegans with 16 samples.

Results

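In early Caenorhabditis elegans embryos that carry the met-2 mutation, 1255 windows of 500 bp on the autosome arms were enriched for trimethylated histone H3 lysine 9 (H3K9me3), while the same windows were not called for dimethylated H3K9 (H3K9me2) in set-25 mutant embryos. They were chosen by these values: on chromosomes I to V, with the window's midpoint in the outer 25% of the chromosome at either end and at least 20 counts in all 4 inputs, the log2 ratio of ChIP to input was above 1 for H3K9me3 in met-2 and at most 1 for H3K9me2 in set-25. The 1255 windows made up 1.6% of the 78661 arm windows that passed the floor on input counts, and 62.3% of the 2016 arm windows above 1 for H3K9me3 in met-2. The other 761 of the 2016 were above 1 for H3K9me2 in set-25, as were 17373 (22.1%) of the 78661. The 1255 are called H3K9me3-only arm windows here, which means only that H3K9me2 of set-25 did not pass the threshold. The name joins marks of different strains and says nothing of H3K9me2 in met-2 itself, which is given below.

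Methylation of H3K9 marks heterochromatin. In worms it is found mostly on the arms of the autosomes, which are rich in repeats, and it holds chromatin at the nuclear periphery. MET-2, the worm homologue of SETDB1, deposits mono- and dimethylation, and SET-25 deposits trimethylation in embryos. Embryos without MET-2 can therefore show where SET-25 places H3K9me3 without the H3K9me2 that MET-2 makes, and embryos without SET-25 where MET-2 places H3K9me2.

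Chromatin was taken from whole early embryos, not yet at the bean stage, of worms grown at 20 °C. The met-2 embryos carried met-2(n4256) III and the set-25 embryos set-25(n5021) III. Each mark had a ChIP and an input in each strain, and the labels name 2 biological replicates for each of these 8 groups, but the deposited table holds 1 column of counts per group. All groups were mutant, so no value below says what was kept or lost relative to wild type. With 1 column per group no difference could be set against replicate error and no test was run. Intervals cover counting error only.

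Library totals ran from 19732750 to 58645635 counts for the 4 ChIPs and from 34007808 to 114221896 for the 4 inputs. On chromosome III, which carries both mutations per the labels, the H3K9me3 ChIP and input that carry the set-25 label went against it in runs of windows missing from inputs. Both met-2 inputs held 0 counts from 8376501 to 8377500 on III. The set-25-labelled input for H3K9me3 held 2 counts there where its flanks predicted 608, and its ChIP 15 where its flanks predicted 139.5. From 13287501 to 13289000 both inputs labelled set-25 were nearly empty, with 4 and 2 counts, but the H3K9me3 ChIP labelled set-25 held 1431 counts where its flanks predicted 1029.9. The ChIP was thus depleted at the first place alone and its input at both, so each ratio of this pair sets a ChIP over an input that differed from it there. The pair is called the library labelled set-25. It entered the choice of windows only through the floor on input counts, and without its input in that floor 1281 windows were chosen, all 1255 among them.

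The windows differed in how far they stood above the H3K9me3 threshold. The median of their H3K9me3 ratio in met-2 was 1.52 (quartiles 1.20 and 2.13) and reached 4.13, with 608 windows at most 1.5 and 358 above 2. This is the value they were chosen by, and 2.56% of all arm windows and 4.1% of all windows were above 1. In counts, the H3K9me3 ChIP of met-2 held between 30 and 18379 per window, with a median of 1084, against a median of 201 in the other arm windows. The input of that ChIP held a median of 654 in these windows and 499 in the others, so that the input was higher as well, but by less. With the H3K9me2 input of met-2 under this ChIP in place of its own, 5785 arm windows met the rule, 1001 of the 1255 among them. Together the 1255 windows took 3.44% of the H3K9me3 ChIP of met-2 and 0.857% of its input.

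For H3K9me2 in set-25, the second value of the choice, the median was -0.35 (quartiles -1.02 and 0.30), and the lowest window stood at -3.57. The ratio was above 0 in 459 of them (36.6%) and in 39.4% of all arm windows. These shares are not a like measure, since the rule caps the set at 1. Of the 30958 arm windows above 0, 17373 were also above 1 and could not be in the set. The same limit holds for the other shares of all arm windows in this paragraph. In 279 (22.2%) the counting interval also lay above 0, a share not computed over all arm windows. The ratio was below -1 in 323 windows (25.7%), less often than in all arm windows (35.4%). The threshold of 1 was passed by 22.1% of all arm windows. Measured against the median of the H3K9me2 library over all windows, which was -1.33, 1051 of the 1255 (83.7%) were higher, as were 74.5% of all arm windows. With each library centred on its median, 1180 windows met the rule and 638 of them were among the 1255.

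Counting error was larger than the distance to a threshold for part of the windows. The 95% interval of H3K9me3 in met-2 reached down to 1 or below in 269 windows, and that of H3K9me2 in set-25 reached up to 1 in 153. Both intervals lay clear of the thresholds in 864 windows (68.8%). The 5 windows nearest above the H3K9me3 threshold had ratios of 1.0002 to 1.0022 and the 5 nearest below it 0.9955 to 0.9983. At the H3K9me2 limit the 5 nearest windows inside had 0.9909 to 0.9987 and the 5 nearest outside 1.0006 to 1.0096.

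The windows were spread unevenly over the 10 arms. The right arm of I (2.55% of its windows), the left arm of II (2.53%), the left arm of IV (2.38%), the right arm of V (2.35%) and the right arm of II (2.29%) had similar shares, whose 95% exact binomial intervals overlapped, and together held 966 of the 1255. The right arm of III (1.20%), the left arm of I (1.0%) and the left arm of V (0.911%) came next. The right arm of IV had 27 windows (0.324%) and the left arm of III 20 (0.302%). These intervals treat windows as independent, although most lay beside another of the set, so they are too narrow.

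**Figure D1:**
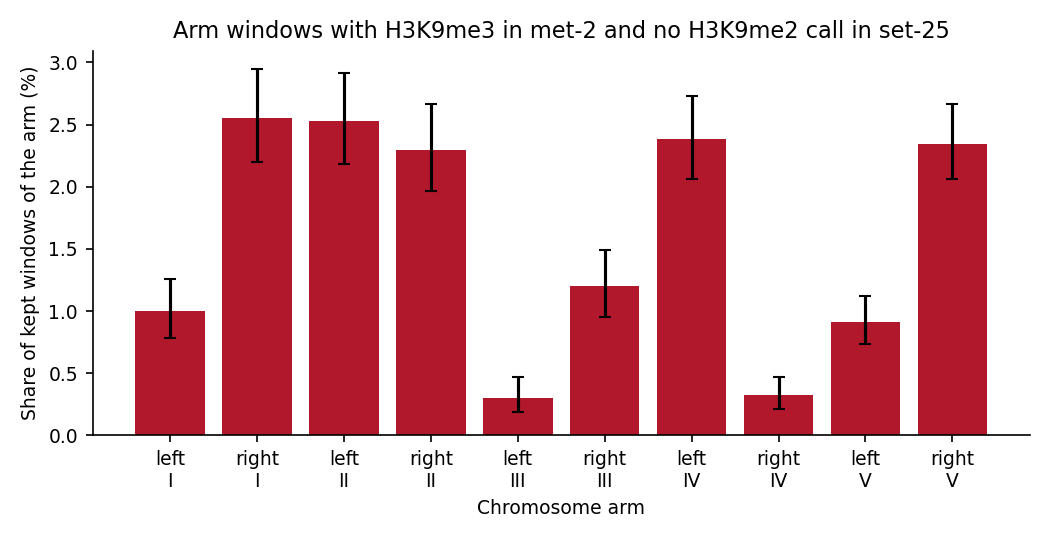
Share of the kept windows of each autosome arm, in %, that had H3K9me3 in met-2 above the threshold and H3K9me2 in set-25 at or below it. Bars are shares and error bars 95% exact binomial intervals over windows. The right arm of I stands highest at 2.55%, and the left arm of III and the right arm of IV lowest at 0.302% and 0.324%.

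On most arms, windows with H3K9me3 in met-2 carried H3K9me2 in set-25 more often than arm windows in general, a description since both values fix the choice. The share was higher in 9 of 10 arms, the exception being the left arm of IV, where 18.9% of the H3K9me3 windows and 21.5% of all windows were above 1 for H3K9me2. On the right arm of I the shares were nearly equal (19.4% against 18.7%). The largest gaps were on the left arm of V (58.0% against 11.3%), the right arm of IV (44.9% against 8.29%) and the right arm of V (54.8% against 31.2%). On the right arm of II, 16.0% of the H3K9me3 windows and 11.4% of all windows were above 1 for H3K9me2. On the left arm of III these shares were 70.1% and 47.3%. The H3K9me3 windows without an H3K9me2 call made up 84.0% and 29.9% on these arms, a smaller share than among all windows there.

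Along the arm, the share was 1.75% in the outermost 5% of the chromosome, 1.03% from 5 to 10%, 1.42% from 10 to 15%, 1.64% from 15 to 20% and 2.13% from 20 to 25%, next to the middle. H3K9me2 in set-25 was above 1 in 28.1% and 29.1% of windows in the bins from 5 to 15%, in 22.0% from 15 to 20%, and in 15.5% and 15.9% in the outermost and innermost bins. All 10 arms had windows of the set in each of these bins, except that 8 did from 5 to 10%.

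The set formed 485 runs of adjacent windows, of which 264 were single windows, and 79.0% of the 1255 lay in runs of at least 2. Runs of at least 10 windows, which is 5 kb, numbered 16, held 250 windows and lay on 6 of 10 arms. Long runs were less common than among the 4866 H3K9me3-only windows in the middle of the autosomes, where 46.1% of windows lay in runs of at least 10, against 19.9% here. Of the 761 arm windows above 1 for both marks 34.6% did. By the rule, a run of the set ends wherever H3K9me2 of set-25 passes 1. Counting H3K9me3 windows regardless of H3K9me2, 864 of the 1255 lay in 346 runs with no H3K9me2 call at all, and the other 391 in 87 runs that also held windows above 1 for H3K9me2. Counted in this way, the arms held 50 runs of at least 10 windows, of which 31 were of the latter, mixed kind.

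The windows were named by length of run, taking the longest run on each arm and the 10 longest of all arms, which gave 15 runs. Positions are those of the deposited windows, counted from 1. The longest run covered 17.5 kb on the right arm of V, from 16770001 to 16787500. Summed over its 35 windows, the H3K9me3 ChIP of met-2 held 86693 counts and its input 29489, and the H3K9me2 ChIP of set-25 held 1686 against 7869 in its input. The H3K9me2 ChIP of met-2 held 6135 against 5321, and the ChIP labelled set-25 for H3K9me3 5481 against 12457. Scaled to library totals, these counts gave log2 ratios of 2.52 (2.50 to 2.54) for H3K9me3 in met-2, -1.04 (-1.11 to -0.96) for H3K9me2 in set-25, 0.56 (0.51 to 0.61) for H3K9me2 in met-2 and 0.14 (0.09 to 0.19) for H3K9me3 labelled set-25. The run was thus high for H3K9me3 of met-2, below input for H3K9me2 of set-25 and slightly above input in the other 2 libraries. The median of H3K9me2 in set-25 was -1.33 over all windows that passed the floor and 0.11 over the right arm of V. A value below 0, here and in the runs below, is therefore not a measure of absence of the mark.

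This run was the largest of 3 H3K9me3 blocks on its arm within 30 kb of its centre. The others measured 6 and 7 kb, began 18.75 and 29.25 kb before the centre, and consisted of 12 windows with 10 in the set and of 14 windows all in the set. The 7 kb block, from 16749501 to 16756500, was the eighth longest run, with H3K9me3 at 1.76. Of the 121 windows within 30 kb, 59 belonged to the set and 14 were above 1 for H3K9me2 in set-25.

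**Figure D2:**
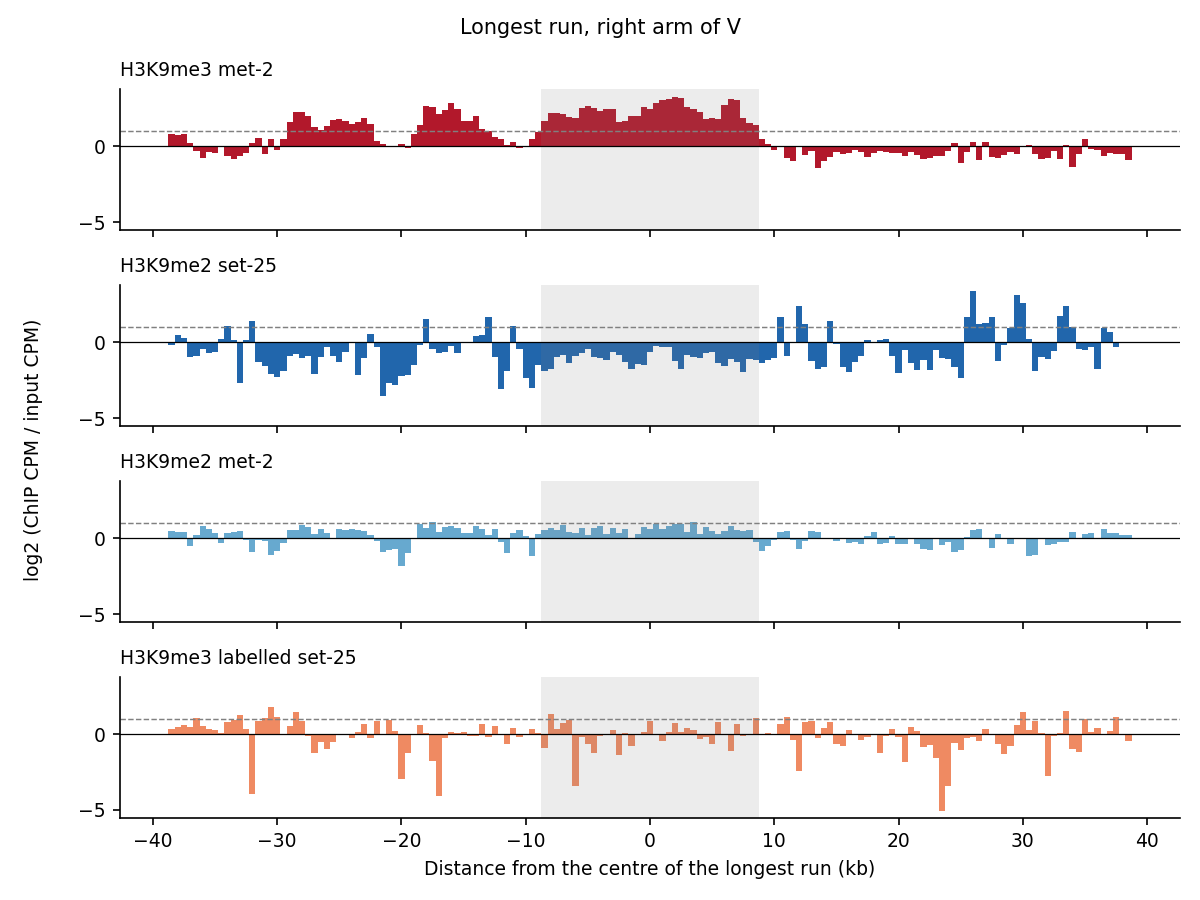
Log2 ratio of ChIP to input per window against the distance in kb from the centre of the longest run on the right arm of V, 1 panel per ChIP library, with the run shaded and the threshold of 1 dashed. H3K9me3 in met-2 reaches 3.26 within the run, and 2 shorter blocks precede it, while H3K9me2 in set-25 lies mostly below 0 across the run.

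The left arm of IV held 4 of the 10 longest runs. From 3793001 to 3800000 lay the run with the highest H3K9me3 of the 15, at 3.31 (3.29 to 3.33) or 9.92-fold over input, with H3K9me2 of set-25 at -0.86 and H3K9me2 of met-2 at 0.98 (0.89 to 1.07). From 1549501 to 1563000 a 13.5 kb run had H3K9me3 of met-2 at 2.67, and its H3K9me2 of set-25 was not distinguishable from input at this depth (0.02, -0.04 to 0.09). It ended beside a window above 1 for H3K9me2. The runs from 4239501 to 4247500 (2.27) and from 4130501 to 4137000 (2.31) stood at -1.39 and -0.12 for H3K9me2 of set-25. On this arm, runs of like H3K9me3 thus differed in H3K9me2 by more than their counting intervals.

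On the right arm of I, H3K9me3 of met-2 was 2.55 from 12497501 to 12508000 and 2.47 from 13905001 to 13913500. The second was the only one of the 15 above 1 for H3K9me2 of met-2, at 1.01 (0.92 to 1.11), while H3K9me2 of set-25 stood at -0.20 and -0.19. The longest run of the left arm of I, from 2629501 to 2635500, had 2.50 for H3K9me3 of met-2 and 0.85 (0.79 to 0.92) for H3K9me3 labelled set-25. On II the run from 51501 to 59000, close to the left end, had 2.41 for H3K9me3 of met-2 and -1.06 (-1.17 to -0.96) for H3K9me3 labelled set-25, the lowest of the 15. The run on the right arm of II from 12151501 to 12158000 had the lowest H3K9me2 of set-25, -1.79 (-1.95 to -1.64), and H3K9me3 of met-2 at 1.76.

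The 4 arms without a run of 10 windows had shorter ones. On the right arm of III, 9 windows from 13237501 to 13242000 had H3K9me3 of met-2 at 2.70, and windows under the count floor bordered them on both sides. On the left arm of V, 8 windows from 4554501 to 4558500 had 1.44, the lowest of the 15, with H3K9me2 of set-25 at -1.53 and 0.89 in the library labelled set-25. On the right arm of IV, 5 windows from 13456501 to 13459000 had 2.59. On the left arm of III, 3 windows from 1918001 to 1919500 had 1.90, with H3K9me2 of set-25 above input at 0.46 (0.29 to 0.62), the only one of the 15 whose interval lay above 0.

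The single windows with the highest H3K9me3 of met-2 also varied in the other libraries. On the right arm of II, 3 adjacent windows from 14322501 to 14324000 had 4.13, 3.88 and 3.77. Their ChIP held 69.9, 99.4 and 51.3 CPM against 3.90, 6.64 and 3.68 CPM of input, while H3K9me2 of set-25 stood at 0.27, 0.57 and 0.68 and the library labelled set-25 at -2.61, -2.28 and -1.24. The first of them rests on few counts for H3K9me2, 21 in the ChIP of set-25 and 39 in its input, and its interval reached 1.09. The other 2 of the 5 highest lay on the right arm of II at 13108001 (3.81) and on the left arm of IV at 3797501 (3.79), with H3K9me2 of set-25 at -0.55 and -1.18.

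**Figure D3:**
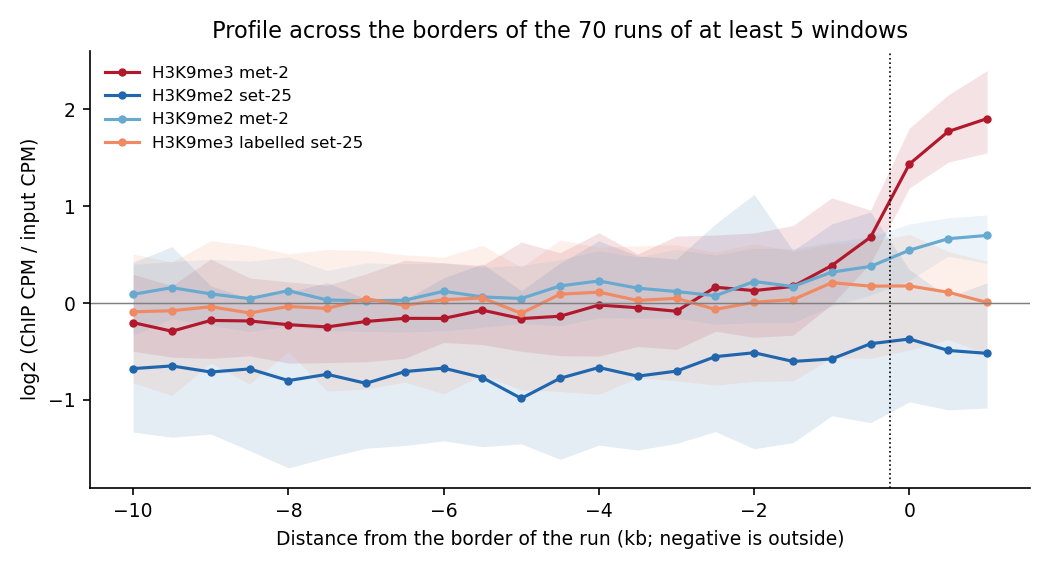
Median log2 ratio of ChIP to input (lines) and quartiles (bands) against the distance in kb from the border of the 70 runs of at least 5 windows, both borders folded together, negative outside. H3K9me3 in met-2 rises from 0.68 just outside to 1.44 in the first window inside and 1.90 at 1 kb inside, and H3K9me2 in set-25 stays between -0.98 and -0.37.

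Across the borders of the 70 runs of at least 5 windows, the median H3K9me3 of met-2 was -0.20 at 10 kb outside, 0.68 in the first window outside, 1.44 in the first inside and 1.90 at 1 kb inside. All 70 runs reach that far, with 117 windows there, since in the shortest runs the windows from both borders are the same one. The step at the border is set by the threshold. H3K9me2 of met-2, which the rule did not use, went from 0.09 at 10 kb outside through 0.38 in the first window outside to 0.55 in the first inside and 0.70 at 1 kb inside. The library labelled set-25 went from -0.09 at 10 kb outside to 0.0059 at 1 kb inside, within its quartiles of -0.82 and 0.51 outside. H3K9me2 of set-25 was -0.68 at 10 kb outside and -0.52 at 1 kb inside.

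H3K9me2 in met-2 was independent of the choice apart from the floor on its input. Over the 1255 windows its median was 0.57 (quartiles 0.26 and 0.82), against -0.03 (-0.37 and 0.28) over the other 77406 arm windows. It was above 0 in 1118 windows (89.1%), where 48.3% of all arm windows were, and above 1 in 159 (12.7%), where 1.4% of arm windows and 1.34% of all windows were. On all 10 arms the median of these windows was above that of the arm. The counting interval of the single window lay above 0 in 853 (68.0%) and below 0 in 36 (2.87%). These interval counts were not made over all arm windows, so they have no background share beside them.

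The size of this difference depended on the input. The H3K9me2 input of met-2 held a median of 0.768 times its median window in these windows and 0.908 times in the other arm windows, while the ChIP held 1.15 and 0.876 times its own. Within 4 ranges of input counts, H3K9me2 of met-2 was higher in the set in each, with medians of 0.73 against 0.36 at 20 to 88 input counts, 0.65 against 0.20 at 89 to 142, 0.54 against -0.0029 at 143 to 184 and 0.37 against -0.26 at 185 to 276. With the H3K9me2 input of set-25 in its place the medians still differed by 0.45. With the H3K9me3 input of met-2, which held 1.34 times its median window here, they differed by only 0.041, at 0.21 and 0.17, and 57.2% of these windows and 57.8% of the other arm windows were above 0. Above 1 were 11.7% and 7.37%. The part of the inputs in this difference cannot be told apart with 1 column per group.

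**Figure D4:**
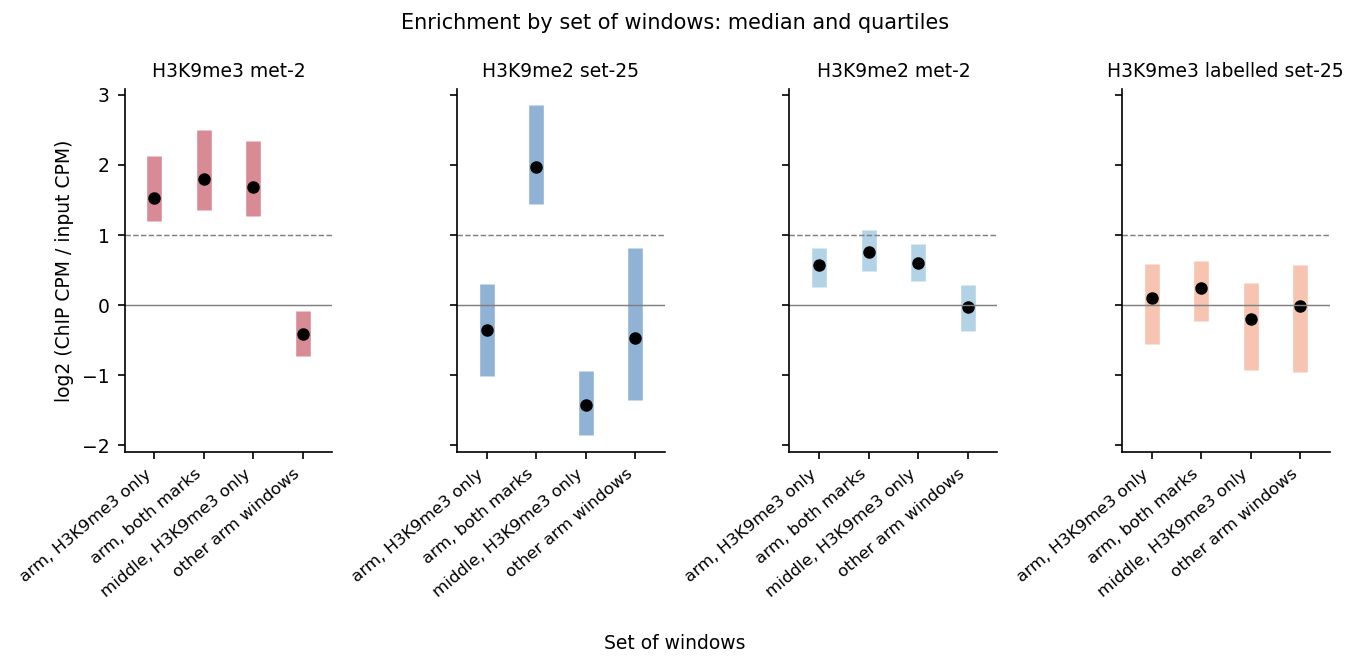
Median (points) and quartiles (bars) of the log2 ratio of ChIP to input in 4 sets of windows, 1 panel per ChIP library, with the threshold of 1 dashed. In the 2 libraries that the choice did not use, H3K9me2 of met-2 stands at 0.57 in the H3K9me3-only arm windows and -0.03 in the other arm windows, and the library labelled set-25 at 0.10 and -0.01.

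The level of H3K9me2 in met-2 followed that of H3K9me3 in met-2 across the windows. The windows were cut into 4 groups of equal size by H3K9me3. In the lowest group (H3K9me3 median 1.09) the median of H3K9me2 was 0.34, and in the next groups 0.49 and 0.55. In the highest group (H3K9me3 median 2.59) it was 0.82, and 92 of 314 windows were above 1, against 15 of 314 in the lowest. Over the 1255 windows Pearson's r was 0.43 and Spearman's rho 0.43, as a description. The points come from separate ChIP and input libraries of the same strain, and neighbouring windows are not independent. From the lowest to the highest group, the H3K9me2 input of met-2 had medians of 146, 148.5, 146 and 126 counts. The H3K9me3 input of met-2 had 536.5, 619, 657 and 823. The part of the inputs in this relation was not tested. Over the other arm windows r between H3K9me3 and H3K9me2 of met-2 was 0.021 and rho -0.067. The relation was not particular to this set: r was 0.53 and rho 0.52 in the 761 arm windows above 1 for both marks, and 0.58 and 0.55 in the 4866 middle windows with H3K9me3 alone.

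Windows in longer runs had more of both. Single windows had a median of 1.16 for H3K9me3 of met-2 and 0.30 for H3K9me2 of met-2, and 182 of 264 were above 0 for the latter. In runs of at least 10 windows the medians were 2.24 and 0.69, and 239 of 250 were above 0. The single windows also had fewer input counts, with a median of 333 in the H3K9me3 input of met-2 against 826 in the long runs.

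**Figure D5:**
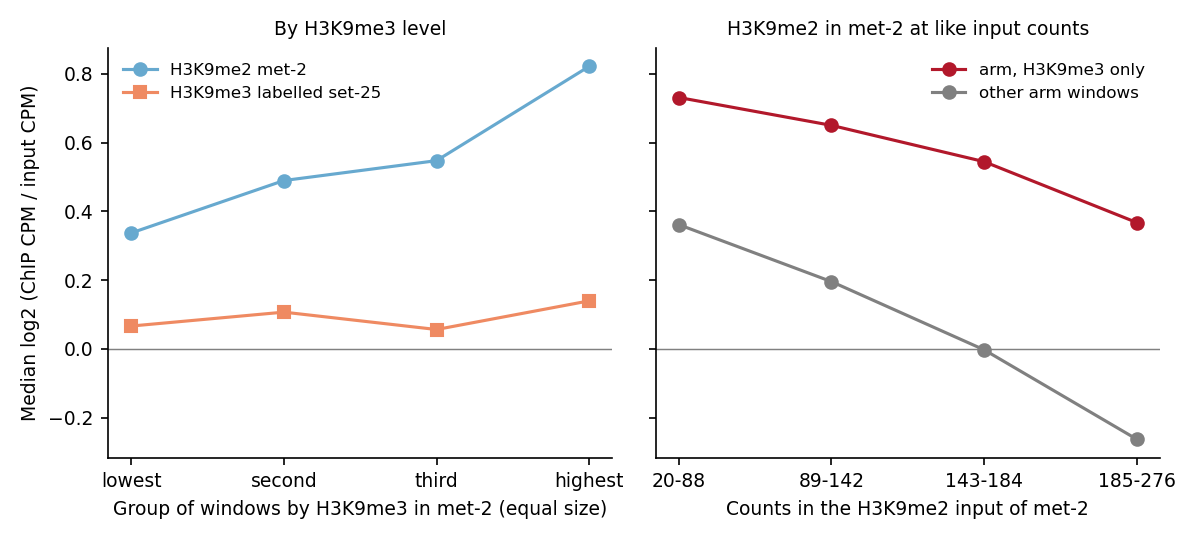
Median log2 ratio of ChIP to input. The left panel splits the H3K9me3-only arm windows into 4 groups of equal size by H3K9me3 in met-2, where H3K9me2 of met-2 goes from 0.34 to 0.82 and the library labelled set-25 from 0.07 to 0.14, and the right panel compares H3K9me2 of met-2 with the other arm windows at like counts in its input.

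The library labelled set-25 for H3K9me3 showed little difference at these windows. Its median was 0.10 (quartiles -0.56 and 0.58), against -0.01 (-0.95 and 0.58) in the other arm windows. It was above 0 in 694 windows (55.3%, against 49.7% of all arm windows) and above 1 in 113 (9.0%), below the 10.4% of all arm windows and above the 6.81% of all windows. Its ChIP held 0 counts in 39 of the 1255, a smaller share than the 16520 of all 191140 windows that passed the floor. In the 4 groups by H3K9me3 of met-2 its median stayed between 0.06 and 0.14, and r with H3K9me3 of met-2 was 0.069 over the windows, a weak relation that is no finding. With the H3K9me2 input of set-25 in place of its own, its median became 0.49 and the difference from the other arm windows 0.57. Among single windows 44 of 264 were above 1, and in runs of at least 10 windows 13 of 250.

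The sets closest to this one were the 761 arm windows above 1 for both marks and the 4866 middle windows with H3K9me3 alone. H3K9me2 of met-2 was 0.76 (quartiles 0.49 and 1.07) in the first and 0.60 (0.35 and 0.88) in the second, so the quartiles overlapped with those of the H3K9me3-only arm windows. For H3K9me2 of set-25 the middle windows had a median of -1.42 (-1.86 and -0.93), lower than the -0.35 here, and 6.41% of them were above 0, against 36.6%. The library labelled set-25 had medians of 0.24 and -0.20 in these sets. For the H3K9me3 ChIP of met-2 the medians in counts were 1962 and 1194.5, against 1084.

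The windows were also set beside their surroundings for H3K9me2 in set-25, a description since the mark was part of the choice. Of the 1255, 865 (68.9%) had a window above 1 within 10 windows on either side, against 62.5% of the 60033 arm windows at most 1 for both values and 98.9% of the windows with both marks. The mean H3K9me2 of those flanks had a median of -0.32 for the set and -0.61 for the 60033. Windows of the set, at most 1 by the rule, and windows under the floor were left out of the set's flanks. A flank mean was thus available for 1229 of the 1255 and for 60029 of the 60033. The 60033 kept neighbours of their own kind, so these medians are not a like measure. The nearest window above 1 was a median of 3 kb away in the set and 3.5 kb in the 60033, and the farthest 70.5 kb in the set and 172 kb in the 60033. In 390 windows (31.1%) it lay more than 5 kb away, where 37.5% of the 60033 did.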

How the data were processed

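Formalin-fixed, sonicated chromatin was paired-end sequenced on an Illumina instrument, per the labels' protocols and the series' design text. The authors deposited counts of reads in windows of 500 bp, not normalized as far as the values show. For the aligner, counting tool, genome build, duplicate removal and handling of repeats, no source at hand gives a name or setting, and counts over repeats need not scale with copy number. Columns were assigned to groups by name, and no name shows whether replicates were added. The incomplete last line was left out, leaving 198087 windows, and 191140 (96.5%) had at least 20 counts in all 4 inputs. Counts were scaled to column totals (CPM), a pseudocount of 0.1 CPM was added, and enrichment was the log2 ratio of each ChIP to its own input. For runs, summed counts without a pseudocount were used, with exact (Clopper-Pearson) 95% intervals of the ChIP share. Amplified reads are not independent molecules, so these cover counting error only. Since 4 of 5 autosomes in the WBcel235 gene table hold genes past the end of the windows, the builds differ: no window was tied to a gene by coordinates, and no sequence was read. The runs missing from inputs on III were found from the counts alone.

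The rule for the windows and the sets compared were chosen with earlier results of these data known. Runs were named as the longest on each arm and the 10 longest of all arms, and windows as the 5 with the highest H3K9me3 of met-2 and the 5 nearest to each side of the thresholds. Replicate tests, planned only for a table with a column per replicate, were not run. Scripts (Python 3.11.15, pandas 2.3.3, scipy 1.17.1) were tested on simulated data. Alternatives for pseudocount, floor, scaling, thresholds, inputs, arm width, flank and runs were computed. At the median window the ChIP libraries held 41 to 204 counts.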

Additional observations from a re-analysis of the deposited data

How the results depend on the processing

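No paired analysis was possible because the table has 1 column per group, which also prevented leaving out a replicate. There were 20 alternatives, 5 of them chosen after seeing the data. Of 219 values, 125 stayed within the 95% binomial interval over windows of the reported value (for the number of windows, within 1.5 times). Another 93 moved and 1 changed sign, and the cause was not tested. Part of the 125 could not move. Another input under the H3K9me2 ChIP of met-2 or the ChIP labelled set-25, the flank width and bridged gaps leave most quantities as they are. The 125 is thus no measure of robustness. The number of windows, 1255, became 3119 at an H3K9me3 threshold of 0.5, 358 at 2, 796 at an H3K9me2 limit of 0, 2495 with arms of the outer 33%, and 5785, with 1001 of the 1255 among them, with the H3K9me2 input of met-2 under the H3K9me3 ChIP. Centring each library on its median gave 12.2% of windows on the right arm of V (18.6% as reported), 59.3% in runs, a flank median of H3K9me2 of 0.70, which changed sign, H3K9me2 of met-2 at 0.33 (6.61% above 1, difference 0.35), the library labelled set-25 at 0.30 (19.4% above 1, difference 0.0086) and a relative H3K9me2 input of 0.849. In the same order of quantities, the H3K9me2 input under the H3K9me3 ChIP gave 10.2%, 55.9%, -0.41, 0.49 (8.21%, 0.54), 0.38 (12.5%, 0.44) and 0.465. The limit of 0 gave 15.7% on V, 72.1% in runs, a flank median of -0.55 and H3K9me2 of met-2 at 0.52 (difference 0.54). Arms of 33% gave 14.7%, 85.7%, -1.01, 0.62 (18.3%, 0.64), 0.025 (7.01% above 1) and 0.854, and arms of 20% a flank median of -0.15 and a relative input of 0.811. The threshold of 0.5 gave 63.5% in runs, H3K9me2 of met-2 at 0.30 (6.80%, 0.33), the library labelled set-25 at 0.029 (11.8%, 0.038) and 0.838, and that of 2 gave 83.8%, a flank median of -0.10, 0.81 (27.1%, 0.83), 0.16 (difference 0.17) and 0.681. A pseudocount of 1 CPM gave 87.4% in runs, a flank median of -0.12, H3K9me2 of met-2 at 0.52 (4.89%, 0.54) and 4.33% above 1 in the library labelled set-25. Without a floor the flank median was -0.20, H3K9me2 of met-2 had 14.7% above 1 and a difference of 0.56, the library labelled set-25 had 12.9% above 1 and the relative input was 0.645, and with a floor of 50 counts these 2 shares above 1 were 10.5% and 6.81% and the relative input 0.828. Under the H3K9me2 ChIP of met-2, the H3K9me3 input gave 0.21 (difference 0.041) and the H3K9me2 input of set-25 0.38 (2.47% above 1, difference 0.45). Under the ChIP labelled set-25, the H3K9me2 input gave 0.49 (36.0%, 0.57). The H3K9me3 input labelled set-25 under the H3K9me2 ChIP of set-25 gave 82.8% in runs, H3K9me2 of met-2 at 0.62 (17.5%, 0.65), 0.15 (difference 0.16) and a relative input of 0.686. A flank of 4 windows gave -0.20 and bridged gaps 84.4% in runs. In windows of runs only, H3K9me2 of met-2 was 0.61 (difference 0.63) and the library labelled set-25 had 6.96% above 1, and in windows past both thresholds by their intervals 90.2% lay in runs with H3K9me2 of met-2 at 0.61 (difference 0.63). The difference of H3K9me2 of met-2 from the other arm windows, 0.59 as reported, was above 0 under all 20, some of which could not change it. With the H3K9me3 input of met-2 under that ChIP, the interval of this difference over windows, from -0.027 to 0.11, included 0.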

Other observations

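The H3K9me3-only arm windows were dense in few places. Cut into 500 kb bins, the arms made 89, of which 79 held any of these windows, with a median of 9 in those that did. The 5 bins with the highest numbers held 363 of the 1255 (28.9%). They were the bin from 16500001 to 17000000 on V with 97 windows, which holds the longest run, from 4000001 to 4500000 on IV with 74, from 1500001 to 2000000 on II with 73, from 14500001 to 15000000 on I with 67 and from 13500001 to 14000000 on I with 52. The bin on IV reaches past the border between arm and middle, and 705 of its windows counted as arm. By share of the arm windows counted, it stood at 10.5% and the bin on V at 10.4%. A further bin on V, from 15500001 to 16000000, had fewer windows of the set (43 of 592) but a higher share, 7.26%, than the bins on I (6.86% and 5.43%).

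At the 970 borders of the 485 runs, the next window was at most 1 for H3K9me3 in met-2 in 647 cases (66.7%). It was above 1 for both marks in 167 (17.2%), so that the border there lay within an H3K9me3 stretch, and it was under the count floor in 156 (16.1%). At least 1 border of the former kind was found in 139 runs (28.7%), but in only 3 of the 16 runs of at least 10 windows.

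Split by H3K9me2 of set-25, the median H3K9me2 of met-2 was 0.44 in the 323 windows at -1 or below, 0.56 in the 473 windows from -1 to 0 and 0.63 in the 459 windows from 0 to 1. The H3K9me2 input of met-2 fell alongside, with medians of 151, 144 and 129 counts, and its part was not tested. The relation was not particular to this set. Pearson's r was 0.20 here, 0.32 over the other arm windows, 0.17 where both marks passed and 0.33 in the middle windows with H3K9me3 alone.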
